A study of Mus musculus with 6 samples.

Results

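The clock output factors examined here are 9 genes, Dbp, Tef, Hlf, Nfil3, Bhlhe40, Bhlhe41, Ciart, Rora and Usp2, that carry or shape the daily rhythm set by the circadian clock. They were chosen by name, with earlier results of these data known. Every probe set annotated to exactly 1 of these symbols was taken, which gave 23 of the 45037 probe sets on the array that are not manufacturer's controls. Rora had 9 of them, Tef 3, Dbp, Hlf, Bhlhe41 and Usp2 had 2 each, and Nfil3, Bhlhe40 and Ciart had 1 each. No probe set carrying several symbols named a member.

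Livers of male BALB/c mice, 10 weeks old, were profiled on Affymetrix expression arrays. The isolated group held 3 arrays from mice housed singly for 30 days, with little bedding and with the cages screened from social contact, and the control group held 3 arrays from mice that were not isolated. All mice arrived at 4 weeks of age and lived 5 to a cage over 10 days of acclimatization, with the same diet and water freely available. The labels name no genetic change. The hour at which livers were collected, which matters for genes with a daily rhythm, and the feeding state are not stated by the labels, and nothing says whether each array came from a separate mouse, so p-values measure only the spread between these samples, which may be partly technical.

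In the core of the clock, the CLOCK:BMAL1 complex switches on genes that carry E-box elements, among them its own repressors and a layer of output factors. DBP, TEF and HLF, the PAR bZIP transcription factors, are such outputs and activate genes with a D-box element, while NFIL3 represses through the same element. The nuclear receptor RORα activates, and REV-ERB receptors repress, genes with an ROR response element, which include Arntl (the BMAL1 gene) and Nfil3. BHLHE40, BHLHE41 and CIART (also called CHRONO) repress CLOCK:BMAL1, and USP2 is a rhythmic ubiquitin-specific protease. In liver these factors are known for passing the rhythm on to detoxification, bile acid, lipid and glucose metabolism.

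The stretches of DNA just before the start sites of 3 members are shown because Nfil3 and Rora hold the calls described below and Ciart is the member with the most E-boxes. They come from RefSeq on build GRCm38.p6 and cover the 250 bases before the annotated start, 5′ to 3′ on the strand of the gene. Capitals mark matches to the E-box letters CACGTG or to the core letters of the ROR element, AGGTCA, searched on both strands. The windows are chr13:52981040-52981289 on the minus strand for Nfil3, chr9:68653536-68653785 on the plus strand for Rora and chr3:95882229-95882478 on the minus strand for Ciart.
Nfil3: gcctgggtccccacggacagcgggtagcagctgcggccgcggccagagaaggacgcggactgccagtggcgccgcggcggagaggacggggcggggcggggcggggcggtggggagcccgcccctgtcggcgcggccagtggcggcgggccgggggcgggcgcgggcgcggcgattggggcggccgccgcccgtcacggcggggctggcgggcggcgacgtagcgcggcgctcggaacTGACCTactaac
Rora: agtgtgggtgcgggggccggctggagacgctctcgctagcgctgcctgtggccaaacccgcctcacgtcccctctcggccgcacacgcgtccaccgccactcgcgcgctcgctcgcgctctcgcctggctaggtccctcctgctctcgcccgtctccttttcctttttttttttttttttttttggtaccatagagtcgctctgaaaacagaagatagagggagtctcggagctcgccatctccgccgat
Ciart: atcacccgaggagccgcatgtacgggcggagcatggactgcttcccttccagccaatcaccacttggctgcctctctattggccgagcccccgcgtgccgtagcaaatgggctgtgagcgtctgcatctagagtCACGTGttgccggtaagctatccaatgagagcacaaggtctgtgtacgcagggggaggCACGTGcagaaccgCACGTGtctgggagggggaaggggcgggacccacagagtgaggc

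The Ciart window holds 3 E-boxes, at 116, 58 and 44 bases before the start, as counted to the first base of each. Only 20 of 32851 windows of this length in the table, or 0.0609%, hold 3 or more. In all, 8 of the 9 members matched the table with 9 windows. Of these genes, 3 had an E-box there (Ciart, Bhlhe41 and Tef, the last in each of its windows). Of all windows 6.02% hold this motif, a share counted by window and not by gene. The Nfil3 window has the ROR core letters, read on the opposite strand, beginning 12 bases before the start, and 14% of all windows hold them. No member window held the D-box letters TTANGTAA, which 2.06% of all windows hold. The marked matches do not overlap each other, and they are letters in a window and not measured binding.

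Isolated livers had less Nfil3 transcript, 1.89-fold lower than in controls, and less signal from the Rora probe set 1458129_at, 1.81-fold lower. These were the only calls by limma among the 19 member probe sets tested, with 0 higher and 2 lower at an adjusted p under 0.05. Of all 22519 tested probe sets, 1.63% were called, 0.857% lower and 0.773% higher, beside 10.5% of the members, whose calls lie in 2 genes. The activators Dbp, Tef and Hlf, the repressor Bhlhe40, and Ciart and Usp2 had no call. The median log2 change of the 19 was -0.0145, beside 0.0352 for all tested probe sets, with 12 below 0 and 7 above. An unadjusted p under 0.05 was reached by 8 of the 19, and by 11.4% of all tested probe sets. The 8 lie in Rora, Nfil3, Hlf and Ciart, most of them in Rora. Rora also holds 7 of the 12 below 0, and probe sets of 1 gene are not independent. The other 4 member probe sets, a pair each for Bhlhe41 and Rora, were too dim for the filter, whose floor corresponds to a signal of about 18.0.

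**Figure D1:**
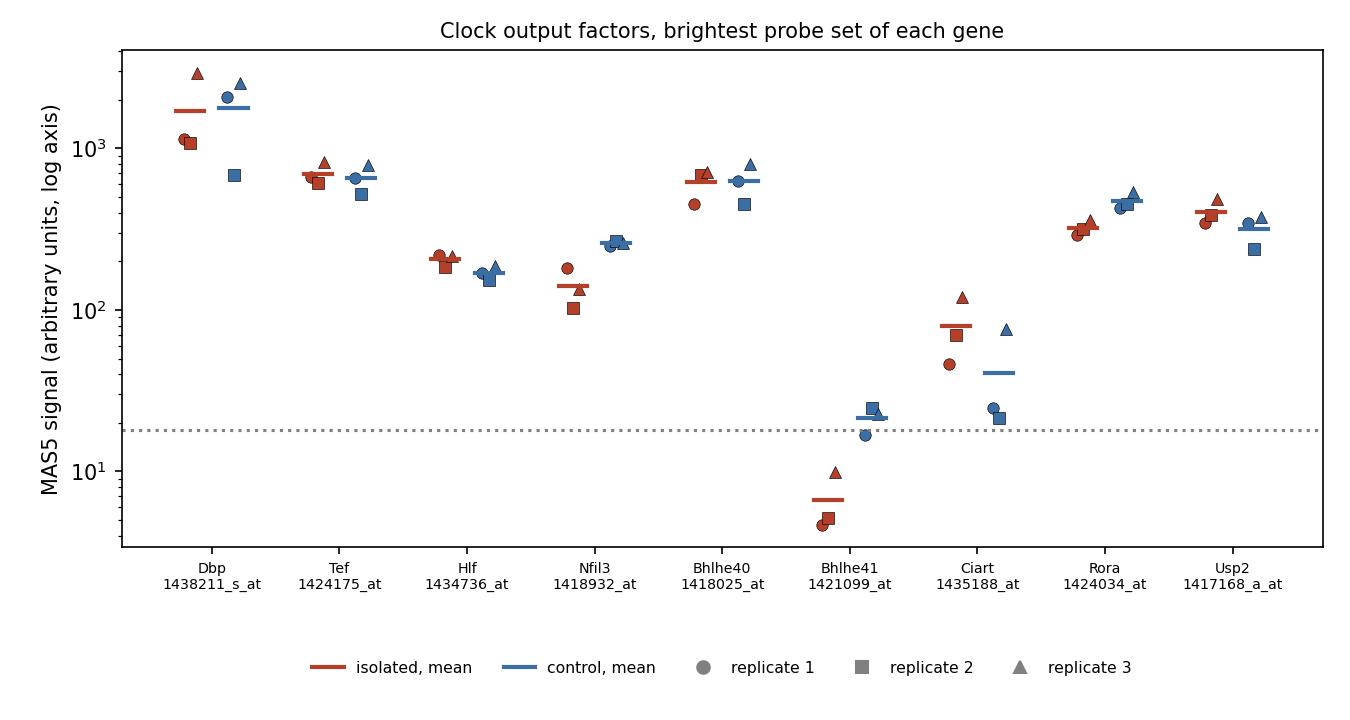
MAS5 signal on a log axis for the brightest probe set of each member, with 1 point per array, isolated left of control, the marker shape giving the replicate number and the bar the group mean. The dotted line is the filter's floor at a signal of 18.0. The groups separate for Nfil3 and Rora and, below the floor in the isolated group, for Bhlhe41, while the Dbp arrays of the groups are interleaved.

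As for the arrays as a whole, the 2% trimmed mean signal ran from 92.5 to 111 in isolated and from 93.0 to 108 in control arrays. The log2 values correlated across tested probe sets, which are not independent replicates, at 0.969 to 0.973 between isolated arrays, 0.969 to 0.974 between control arrays and 0.955 to 0.968 between arrays of different groups, so every pair within a group was closer than every pair across groups. Summed signals of 5 hepatocyte markers were 45600 to 49800 in isolated and 45300 to 49600 in control livers, as fits the tissue label. The summed signals of all 9 marker lists overlapped between the groups. The adipocyte list, of which 4 of 6 genes had a usable probe set and 1 passed the filter, read 211, 381 and 504 in isolated replicates 1, 2 and 3, against 127, 215 and 178 in controls. Its defining marker Adipoq read 3.78, 59.5 and 54.8 in isolated livers, against 4.38, 8.48 and 15.6 in controls. Fabp4, the list gene that passed the filter, read 203, 300 and 404 in isolated livers, against 117, 202 and 157 in controls, without overlap and with a log2 difference of 0.90 and an adjusted p of 0.0578. Retn read 2.65, 20.0 and 42.2 in isolated livers, against 2.39, 2.78 and 3.88 in controls, and Lep stayed at or under 3.30 on every array. The ratio of 3′ to 5′ Gapdh control probe sets was 0.689 to 0.695 in isolated and 0.692 to 0.719 in control arrays. That of actin was 1.99 to 2.35 in isolated and 2.14 to 2.32 in control arrays, highest on replicate 2 of both groups.

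Nfil3 encodes the repressor at the D-box. Its probe set 1418932_at read 182, 103 and 134 in isolated livers, against 249, 267 and 261 in control livers. Every isolated array lay below every control array, and the isolated arrays were spread more widely. The means were 140 ± 39.6 in isolated and 259 ± 9.08 in control livers (SD, n = 3 each), and the log2 change was -0.92 ± 0.20 (SE) with a limma adjusted p of 0.0185. All fold and log2 changes are on the log2(signal + 2) scale. In bulk liver, fewer cells of a type and less transcript per cell cannot be told apart. Adipoq, Retn and Fabp4, given above, were highest on isolated replicates 2 and 3, and the part of adipocyte markers in the result was not tested. With isolated replicates 2 and 3 left out together, a fit chosen after seeing the data that assumes the lone isolated array varies like the controls, the log2 change was -0.51 with an adjusted p of 0.647. The call was also lost without isolated replicate 2 (adjusted p 0.0809), control replicate 2 (0.0556) or control replicate 3 (0.0774), without the intensity trend in the variance model (0.198) and without the filter (0.0537).

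Rora encodes the receptor that activates through the ROR element, and its tested probe sets pointed the same way without all being called. All 7 tested Rora probe sets had a log2 change below 0, and in 5 of them every isolated array lay below every control array, while 5.79% of all tested probe sets show such a separation downward. They share a gene and arrays, so they are not independent. The called probe set, 1458129_at, read 87.8, 89.0 and 72.4 in isolated livers, against 160, 145 and 149 in control livers. The spread within each group was small beside the gap, and the log2 change was -0.85 ± 0.19 (SE) with a limma adjusted p of 0.0214. The call was lost without isolated replicate 3, or without control replicate 1, 2 or 3 (adjusted p 0.0653, 0.084, 0.0579 and 0.0676 in that order), with isolated replicates 2 and 3 both left out (log2 change -0.77, adjusted p 0.241), without the intensity trend (0.136) and without the filter (0.0501). The part of the adipocyte markers in these Rora values was not tested either.

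The brightest Rora probe set, 1424034_at, read 292, 318 and 360 in isolated livers, against 426, 450 and 537 in control livers. Its groups did not overlap, but its log2 change of -0.54 ± 0.17 (SE) had a limma adjusted p of 0.138. With quantile normalization it passed, at -0.60 and an adjusted p of 0.0199. Probe set 1455165_at read 191, 263 and 168 in isolated livers, against 368, 376 and 264 in control livers. The highest isolated and the lowest control array nearly met, at 263 and 264, and the log2 change of -0.70 had an adjusted p of 0.09. It passed with a robust trend (0.048), with the replicate number as a block (0.0246) and without isolated replicate 2 (0.0251).

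Probe set 1420583_a_at, whose suffix marks probes shared by transcripts of the same gene, read 210, 203 and 231 in isolated livers, against 301, 282 and 330 in control livers. These groups were apart as well, with a log2 change of -0.50 and an adjusted p of 0.186, or 0.0298 with quantile normalization. Probe set 1436326_at separated the groups more narrowly, at 136 to 162 in isolated and 170 to 247 in control livers, with a log2 change of -0.51 and an adjusted p of 0.261. The remaining tested probe sets overlapped. Probe set 1436325_at averaged 149 ± 5.48 in isolated and 167 ± 26.8 in control livers (SD, n = 3 each), with a log2 change of -0.15 and a 95% interval of -0.54 to 0.25. The dim probe set 1424035_at averaged 21.4 ± 8.71 in isolated and 28.7 ± 5.16 in control livers, with a log2 change of -0.45 and an adjusted p of 0.74. The 2 that missed the filter, 1458145_at and 1441085_at, averaged 14.8 and 14.1 in isolated and 9.12 and 5.34 in control livers, and both overlapped between the groups. Whether the Rora probe sets differ from each other in their change was not tested.

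**Figure D2:**
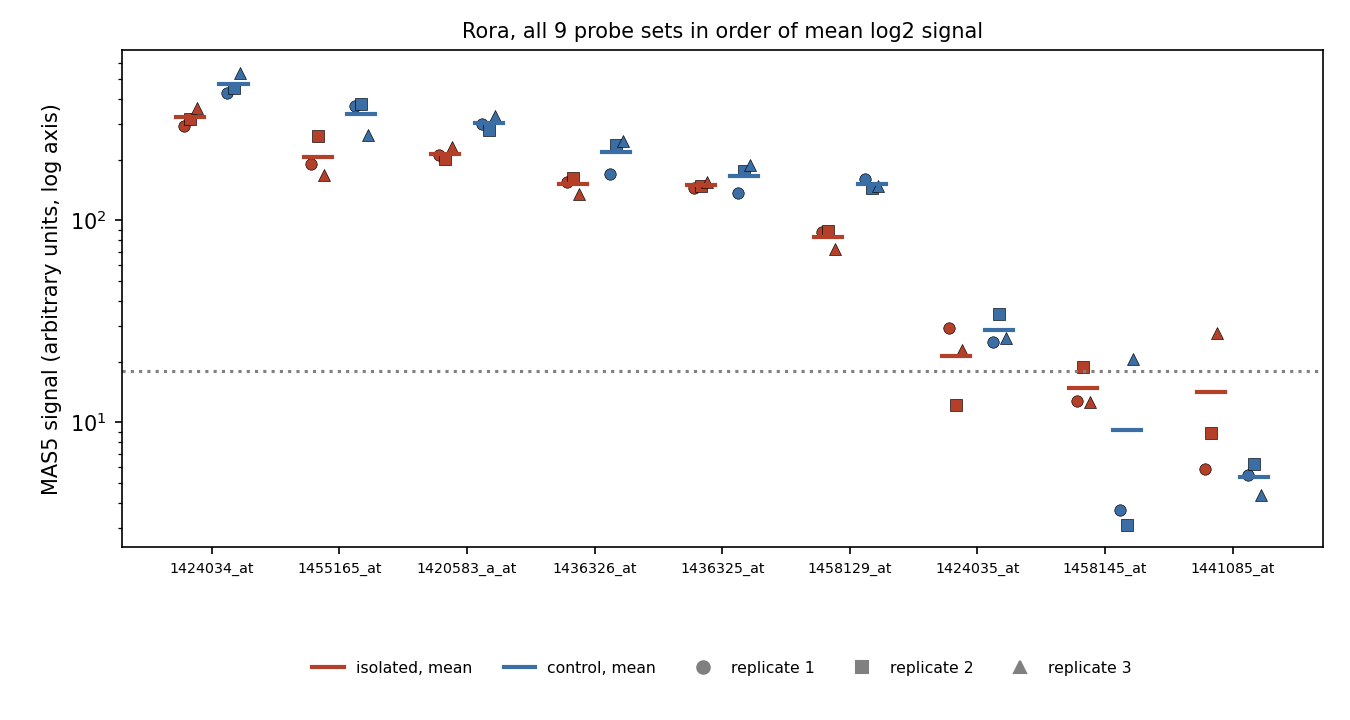
MAS5 signal on a log axis for all 9 Rora probe sets in order of mean log2 signal, with 1 point per array, isolated left of control, marker shape giving the replicate number and bars the group means. In 5 of the 7 probe sets whose mean lies above the filter's floor (dotted, signal of 18.0) the isolated arrays all lie below the control arrays.

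Dbp, the PAR bZIP activator best known for its strong daily rhythm, did not separate the groups. Probe set 1438211_s_at, whose suffix marks probes that can match more than 1 transcript, read 1138, 1076 and 2928 in isolated livers, against 2073, 684 and 2539 in control livers. Isolated replicate 3 was the highest array of all and control replicate 2 the lowest, so each group spanned most of the range of the other. The log2 change was -0.0018 with a 95% interval of -0.75 to 0.75. Probe set 1418174_at read 459, 342 and 1020 in isolated livers, against 759, 250 and 786 in control livers, in a similar pattern. Its log2 change was 0.033 with a 95% interval of -0.70 to 0.77. The sign of the change depended on single arrays: for 1438211_s_at it was -0.58 without control replicate 2 and 0.36 without control replicate 3. These intervals lean on the variance of other probe sets of like brightness, and the SE of 1438211_s_at was 0.359, against 0.726 with a robust trend.

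Tef, a PAR bZIP activator with a shallower rhythm, was nearly level in its brightest probe set. Probe set 1424175_at read 663, 609 and 823 in isolated livers, against 653, 521 and 787 in control livers. The groups overlapped almost fully, and the log2 change of 0.10 had a 95% interval of -0.26 to 0.47. The probe sets 1450184_s_at and 1438033_at had log2 changes of -0.029 and -0.014, with means of 86.6 and 20.7 in isolated and 85.7 and 21.2 in control livers.

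Hlf, the remaining PAR bZIP activator, was slightly higher in isolated livers without reaching a call. Probe set 1434735_at read 180, 200 and 201 in isolated livers, against 147, 133 and 156 in control livers. All isolated arrays lay above all control arrays, as in 9.62% of all tested probe sets, and the log2 change of 0.41 ± 0.18 (SE) had an adjusted p of 0.372. Probe set 1434736_at read 218, 184 and 215 in isolated livers, against 170, 152 and 188 in control livers. Here the lowest isolated array lay under the highest control array, and the log2 change was 0.27 with an adjusted p of 0.649.

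**Figure D3:**
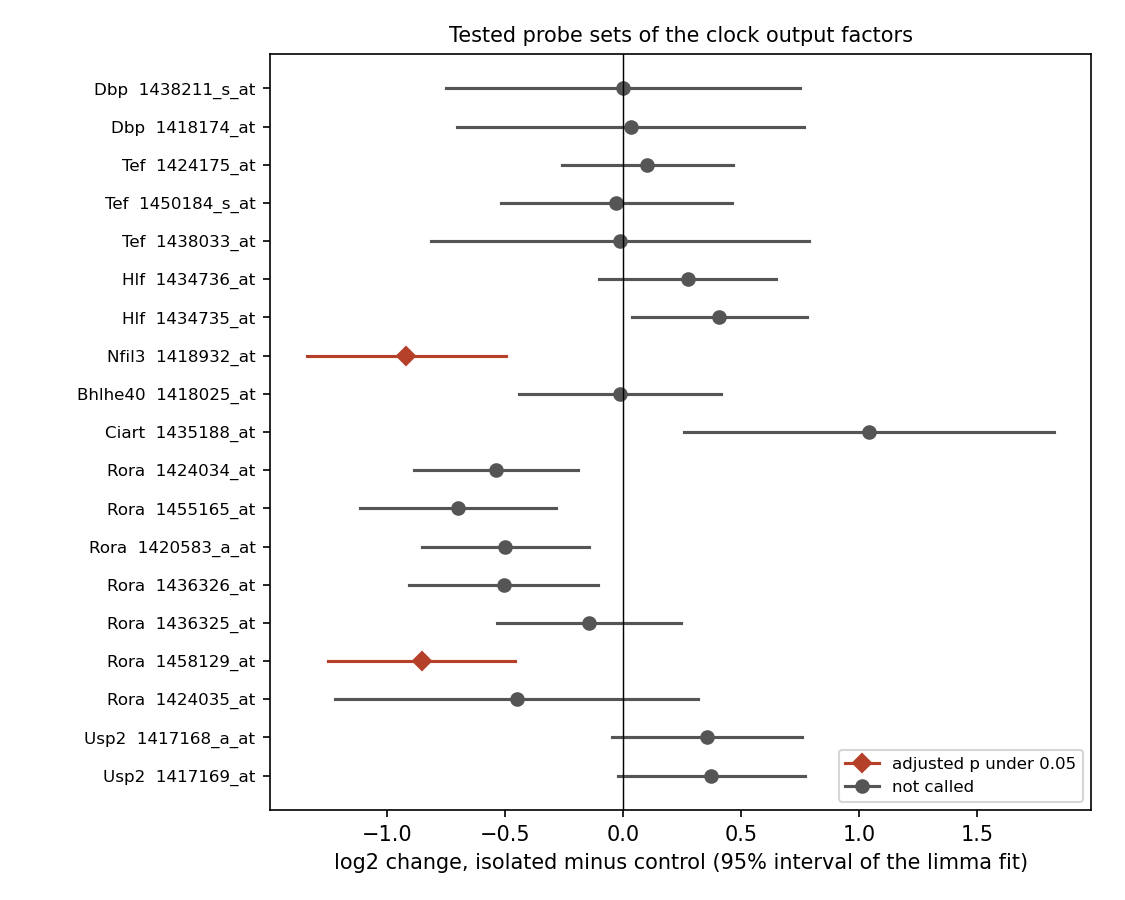
Log2 change, isolated minus control, of the 19 tested member probe sets with the 95% interval of the limma fit. Diamonds mark the 2 calls at an adjusted p under 0.05, Nfil3 at -0.92 and Rora 1458129_at at -0.85. The 7 Rora probe sets all lie left of 0, and the intervals of Dbp and Tef span 0.

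Since NFIL3 and the PAR bZIP factors act in opposite directions at the D-box, the change of Nfil3 was set against that of each activator within the same arrays. The log2 change of Nfil3 was lower than that of Hlf by a difference of -1.19 and lower than that of Tef by -1.02. In both contrasts the isolated and control arrays did not overlap. Nfil3 alone already separated the groups, so this is not separate evidence. An exact two-sided permutation test gave a p of 0.1 for each, the smallest that 3 arrays against 3 allow, or 0.15 after Benjamini-Hochberg adjustment over the 3 contrasts. Against Dbp the difference was -0.92 with an exact permutation p of 0.4, and the groups overlapped; it was -0.31 with control replicate 2 left out and -0.44 with isolated replicate 3 left out. None of the 3 contrasts can be called at this number of arrays.

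Among the repressors of CLOCK:BMAL1, Bhlhe40 read 450, 685 and 712 in isolated livers, against 624, 450 and 801 in control livers. The groups overlapped fully, and the log2 change of -0.012 had a 95% interval of -0.44 to 0.42. Bhlhe41, its close relative, was dim. Its probe set 1421099_at read 4.69, 5.18 and 9.98 in isolated livers, against 16.9, 24.5 and 22.6 in control livers. All isolated arrays lay below all control arrays, but the probe set missed the filter and no detection calls were at hand, so no fold is given. In a fit without the filter its adjusted p was 0.39. Its other probe set, 1457096_at, stayed between 1.39 and 15.6 on all 6 arrays and overlapped between the groups.

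Ciart, the member with 3 E-boxes in the window shown above, averaged 79.1 ± 38.1 in isolated and 40.8 ± 30.9 in control livers (SD, n = 3 each). The arrays read 46.5, 69.6 and 121 in isolated livers, against 24.8, 21.3 and 76.4 in control livers. The groups overlapped through control replicate 3, which exceeded isolated replicates 1 and 2. The log2 change of 1.04 was the largest upward among the tested members, with an SE of 0.376 and an adjusted p of 0.228. It passed when control replicate 3 was left out (1.59, adjusted p 0.0328) or isolated replicate 1 was (1.36, adjusted p 0.0412). The change was 0.69 (adjusted p 0.603) with isolated replicate 3 left out and 0.72 (adjusted p 0.571) with control replicate 2 left out, and with a robust trend the adjusted p was 0.621.

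Usp2, the protease of the group, gave like values in both of its probe sets. Probe set 1417168_a_at read 343, 388 and 483 in isolated livers, against 344, 237 and 374 in control livers. Isolated arrays were mostly the higher, with an overlap, and the log2 change of 0.35 had an adjusted p of 0.532. Probe set 1417169_at read 363, 384 and 436 in isolated livers, against 328, 224 and 378 in control livers. Its log2 change was 0.37 with an adjusted p of 0.484. Much of both differences rested on control replicate 2, with log2 changes of 0.16 for either probe set when it was left out, and that of 1417168_a_at was 0.22 when isolated replicate 3 was left out.

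The members differed widely in how much they varied between arrays of the same group. The SD of log2 signal within groups was 0.919 and 0.875 for the Dbp probe sets and 0.828 for Ciart, which placed them at or above percentile 98.0 of all tested probe sets, whose median was 0.254. Hlf, by contrast, had 0.101 and 0.142, at percentiles 3.62 and 12.6, and Nfil3 had 0.287 at percentile 59.0. Within the control group the highest Dbp signal of 1438211_s_at was 3.71 times the lowest, and within the isolated group 2.72 times, while the trimmed mean of whole arrays varied by 1.16 and 1.2 times.

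Of the 19 tested member probe sets, 13 were highest on replicate 3 in both groups, as were 37.2% of all tested probe sets. After quantile normalization, which gives all arrays the same distribution, these were 4 of the 19 and 10% of all. Dbp 1438211_s_at and Ciart were among the 4, with SDs of 0.823 and 0.761 that still lay at percentiles 98.2 and 97.5. The labels use the same replicate numbers in both groups but do not say that a number links samples.

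**Figure D4:**
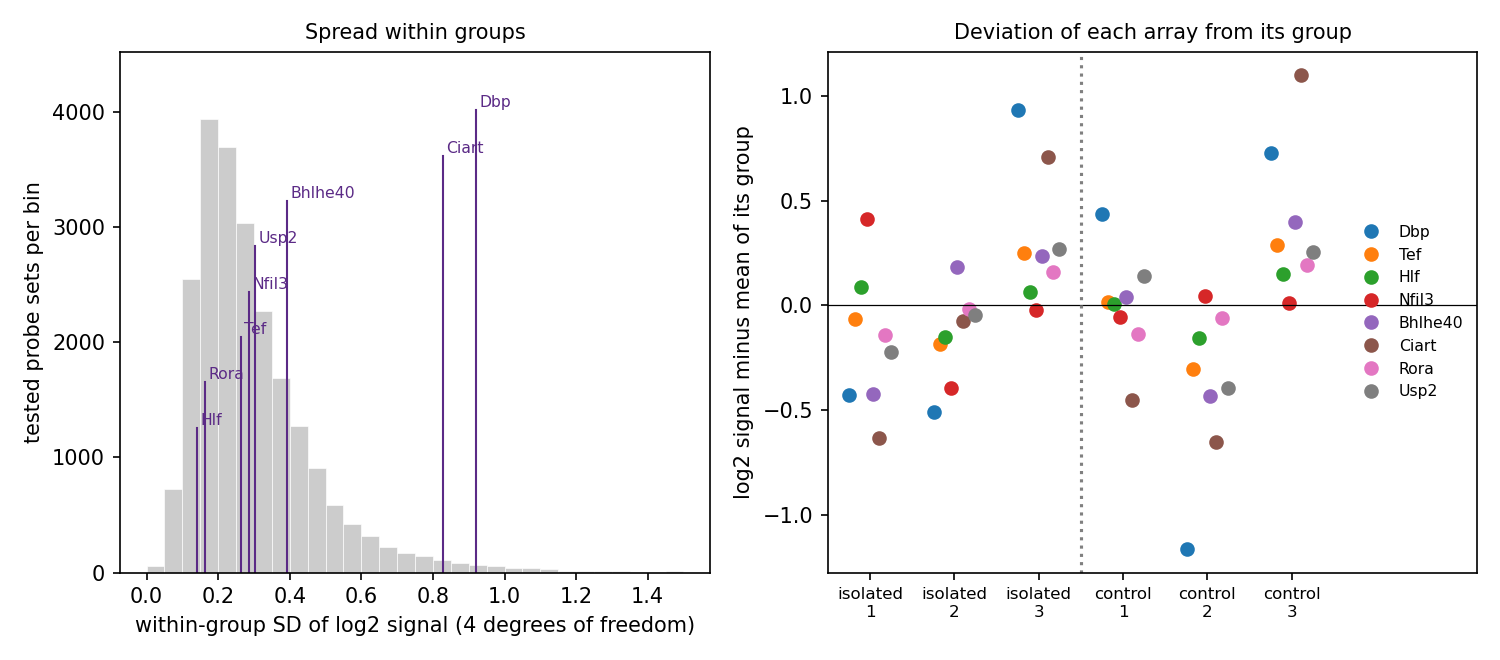
Left, the number of tested probe sets by the SD of their log2 signal within groups (values above 1.5 in the last bin). Purple lines mark the brightest tested probe set of each member except Bhlhe41, which had none tested, and line height carries no value. Right, the log2 signal of those probe sets minus the mean of its group, by array. Dbp and Ciart lie far right of most probe sets, at 0.919 and 0.828, and are highest on replicate 3 of both groups.

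Around these members, other genes of the clock were mostly not called. Of 15 listed genes of the core clock loop, 11 were tested, 0 rose and 0 fell, with 5 above 0 and 6 below and a median log2 change of -0.049, beside 0.0522 for 1 probe set of each gene. In that set of all genes 0.901% were called higher and 0.847% lower. The smallest p in the loop was that of Nr1d2, which encodes REV-ERBβ, at 1333 ± 405 in isolated and 1871 ± 270 in control livers (SD, n = 3 each) with an adjusted p of 0.186. Of 8 genes reported as targets of PAR bZIP factors, 5 were tested, 1 rose and 0 fell, with a median log2 change of 0.067. That gene was Cyp7a1, which encodes the enzyme that sets the pace of bile acid production. Its brightest probe set rose by 2.46 on the log2 scale with a limma adjusted p of 3.23e-05. That call did not hold with a robust trend or without the intensity trend. The dimmer Cyp7a1 probe set 1422100_at had a log2 change of 2.42 and an adjusted p of 0.000182, and probe sets of 1 gene are not independent.

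Of 7 genes reported as targets of ROR and REV-ERB receptors, 6 were tested and none was called, with 2 above 0, 4 below and a median log2 change of -0.14. By the brightest probe set of each gene, the smallest p there was that of Avpr1a, a vasopressin receptor. Its log2 change was 0.53 with a limma adjusted p of 0.429. The dimmer Insig2 probe sets 1417981_at and 1417980_a_at had smaller adjusted p, 0.301 and 0.318, with log2 changes of -0.43 and -0.44. Of 10 other genes with a daily rhythm in mouse liver, 9 were tested and none was called, with 3 above 0, 6 below and a median log2 change of -0.25. Noct, which encodes the rhythmic protein nocturnin, had the smallest p, with a log2 change of 0.85 and an adjusted p of 0.157.

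The genes whose 6 values ran closest to the called members were found by the Euclidean distance between log2 profiles over the 6 arrays, each centred on its own mean, among 10985 other genes. For Nfil3 these were Taf4b, Ptch1 and Rbm12b2 at distances of 0.184, 0.235 and 0.296, where the median gene was at 1.40. Ptch1, the Hedgehog receptor gene, was called lower as well, by 0.89 on the log2 scale with a limma adjusted p of 0.0133. Taf4b and Rbm12b2 had log2 changes of -1.01 and -0.92 but were not called (adjusted p 0.0547 and 0.0568). For Rora 1458129_at they were Jun, Fblim1 and Cacna2d4 at distances of 0.241, 0.246 and 0.251, where the median gene was at 1.30. Jun, a subunit of the AP-1 transcription factor, was called lower, by 0.86 on the log2 scale with a limma adjusted p of 0.0228. Fblim1 and Cacna2d4 had log2 changes of -0.77 and -0.73 but were not called (adjusted p 0.428 and 0.481). These distances describe 6 arrays in 2 groups. The genes were picked for profiles like those of members called lower, so their own falls are not separate evidence.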

How the data were processed

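Total RNA was extracted with TRIzol and RNeasy columns and labelled with biotin, per the labels' protocols. The deposited intensity values came from MAS5, which gives a linear signal per probe set, per the submitters' processing notes. Neither the scaling target nor detection calls are stated there, and dim signals are noisy. The authors' scale was kept.

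Of 45101 probe sets, 64 control probe sets were set apart. A pseudocount of 2, the rounded percentile 10 of all values, was added before log2, which understates changes of dim probe sets. The 22519 probe sets with a mean log2 value in the upper 50% were tested with limma 3.58.1 in R 4.3.3 (eBayes with an intensity trend, two-sided, Benjamini-Hochberg over all tested, call at an adjusted p under 0.05). The eBayes fit had 16.1 prior degrees of freedom beside 4 residual ones. A gene in a list was represented by its tested probe set with the highest mean, among 10986 genes. Symbols came from the platform annotation. Promoter windows came from RefSeq, GRCm38.p6. In a simulation of the comparison of isolated with control livers over 22519 probe sets, 73% of changes of 1 log2 unit and 94% of changes of 2 were recovered, 8 of 175 calls were false, and 0 calls were made with nothing changed. The simulation drew independent normal values whose SD depended only on brightness. In these data probe sets of like brightness also differ in variance, so the simulated shares may not hold for them.

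The members and lists were chosen with earlier results of these data known. Named genes were all members, up to 4 called genes of each list or else the gene with the smallest p, and the 3 nearest profiles of each called member. Same-numbered arrays of the 2 groups had deviations that correlated at 0.0049 to 0.044, so the numbers were not taken as pairs. Alternatives covered the pseudocount, filter, normalization, variance model, replicate block and each array left out. With 3 arrays per group their number limits the precision.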

Additional observations from a re-analysis of the deposited data

How the results depend on the processing

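Member probe sets called lower numbered 2 in the fit described, 0 without a filter on dim probe sets and 0 without the intensity trend. They numbered 4 with quantile normalization and 4 with the replicate block. The cause of these differences was not tested. With isolated replicates 2 and 3 left out together, the log2 change was -0.51 for Nfil3 and -0.77 for Rora 1458129_at. Fewer arrays and the choice of arrays cannot be told apart in that fit. With 1 array left out at a time, 0 to 2 member probe sets were called lower and 0 to 1 higher. Over all 22519 tested probe sets, 174 were higher and 193 lower. These became 81 and 101 without a filter, where more probe sets share the adjustment, and 15 and 16 without the intensity trend. Higher calls were 265 with the replicate block and 90 without isolated replicates 2 and 3, and with 1 array left out at a time they ran from 97 to 200, and lower calls from 82 to 246. Among the 4 lists of clock and target genes, higher calls numbered 1 in the fit described, 0 with a robust trend and 0 without the trend, and lower calls 0 in the fit described and 1 with the replicate block; with 1 array left out at a time, 1 to 2 were higher and 0 to 1 lower. The replicate block, under which same-numbered arrays are compared, added the Rora probe sets 1424034_at (adjusted p 0.036) and 1455165_at (0.0246) to the 2 calls. Nfil3 was called in 9 of 15 alternatives (log2 change -1.12 to -0.51, adjusted p 0.00237 to 0.647) and Rora 1458129_at in 8 of 15 (-0.91 to -0.76, adjusted p 0.0141 to 0.241), each below 0 in all 15. All 3 contrasts of Nfil3 with an activator stayed below 0 in every alternative run for them, but the difference from Dbp ranged from -1.34 to -0.31 with 1 array left out at a time.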

Other observations

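Some genes of the core loop, picked after their values were seen, also varied widely within groups. Nr1d1, which encodes REV-ERBα, read 31.1, 13.0 and 50.1 in isolated livers, against 44.0, 39.7 and 77.2 in control livers. Per1, a repressor of the core loop, read 50.8, 49.2 and 73.4 in isolated livers, against 55.7, 20.7 and 74.4 in control livers. Both were highest on replicate 3 of each group, where Dbp was also highest, as were 37.2% of all tested probe sets, or 10% after quantile normalization. Per2 did not share this order in its brightest probe set, 1417602_at. That probe set read 388, 432 and 322 in isolated livers, against 286, 334 and 351 in control livers. Its probe set 1457350_at did, with 85.8, 128 and 131 in isolated livers, against 90.3, 114 and 133 in control livers. Its probe set 1417603_at read 67.1, 87.8 and 82.3 in isolated livers, against 55.6, 57.0 and 49.6 in control livers. There all isolated arrays lay above all control arrays, as in 9.62% of all tested probe sets. For Arntl, the BMAL1 gene, the probe sets disagreed: 1425099_a_at read 62.1, 31.1 and 21.7 in isolated livers, against 42.2, 56.2 and 33.5 in control livers, while 1457740_at read 27.2, 17.6 and 30.9 in isolated livers, against 21.2, 29.9 and 17.9 in control livers. None of these probe sets was called between groups.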
